A study of Mus musculus with 4 samples.

Results

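DDX5 is a DEAD-box RNA helicase, an enzyme that remodels RNA and its protein complexes. The RNAs it touches were mapped by eCLIP, a method in which ultraviolet light links protein to RNA, RNase trims the RNA and an antibody recovers the protein with the fragments it protects. The transcripts described here are those of Nfatc2, Malt1, Map3k1 and Ctla4, genes of T cell receptor and costimulation signalling. They were taken from the authors' list of reproducible DDX5 peaks as every peak whose gene name was one of the 4. This gave 13 of the 900 peaks, in 4 of the 459 genes the list names. All 13 were named for a single gene. The genes were chosen by the presence of such peaks, so peak number and height are given as a description with no test.

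The cells were Th17 cells, helper T cells that make interleukin-17. They were grown from naive CD4 T cells of wild-type C57BL/6 female mice, aged 8 weeks per the growth protocol. All of them had been cultured for 72 h with IL6, TGFb, anti-CD28 and anti-CD3, so no unstimulated cells serve as a comparison. There were 2 immunoprecipitates (IP) with an anti-DDX5 antibody and 2 inputs without antibody. The series' design text speaks of 2 mice and ties no replicate to either of them. The file holds 1 value per peak for both replicates together, so no value per sample and no spread between replicates can be given. An SD below is over peaks. Read counts per library were not analysed here and depth is unknown.

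Antibodies to CD3 and CD28 mimic the antigen and the costimulatory signal that activate a T cell. The signal branches to calcium and NFAT, to NF-κB through MALT1, and to MAP kinases and AP-1, while CTLA4 is an inhibitory receptor that competes with CD28 for its ligands. Map3k1 encodes MEKK1, a kinase at the top of a MAP kinase cascade that leads to JNK. Malt1 encodes a scaffold and protease of the NF-κB branch. Nfatc2 encodes NFAT1, a transcription factor that enters the nucleus when calcineurin removes its phosphates.

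Map3k1 had 8 peaks, Malt1 had 3, and Nfatc2 and Ctla4 had 1 each. The highest log2 enrichment of IP over input, the authors' value for each peak, was 6.68 in Map3k1 (103-fold), 6.15 in Nfatc2 (71.2-fold), 6.02 in Malt1 (65.1-fold) and 4.92 in Ctla4 (30.2-fold). Ranked by their highest peak among 459 genes, these stood at 28, 69, 87 and 315. Nfatc2 and Malt1 are neighbours in this order and differ by little, a gap that cannot be judged without values per replicate. A rank by highest peak favours genes with many peaks, and 283 of the 459 genes had 1. Over the 8 Map3k1 peaks the mean was 5.72 and the median 5.62, both below the single Nfatc2 peak. Over the 3 of Malt1 they were 5.64 and 5.78. The median over the 13 peaks was 5.77, beside 5.31 over all 900 peaks, and 9 of the 13 lay above the median of the list. The 900 include 111 peaks in noncoding exons, where none of the 13 lay, and a median without those was not computed. The lowest of the 13 was 4.91, well inside the authors' minimum log2 fold of 3.

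**Figure D1:**
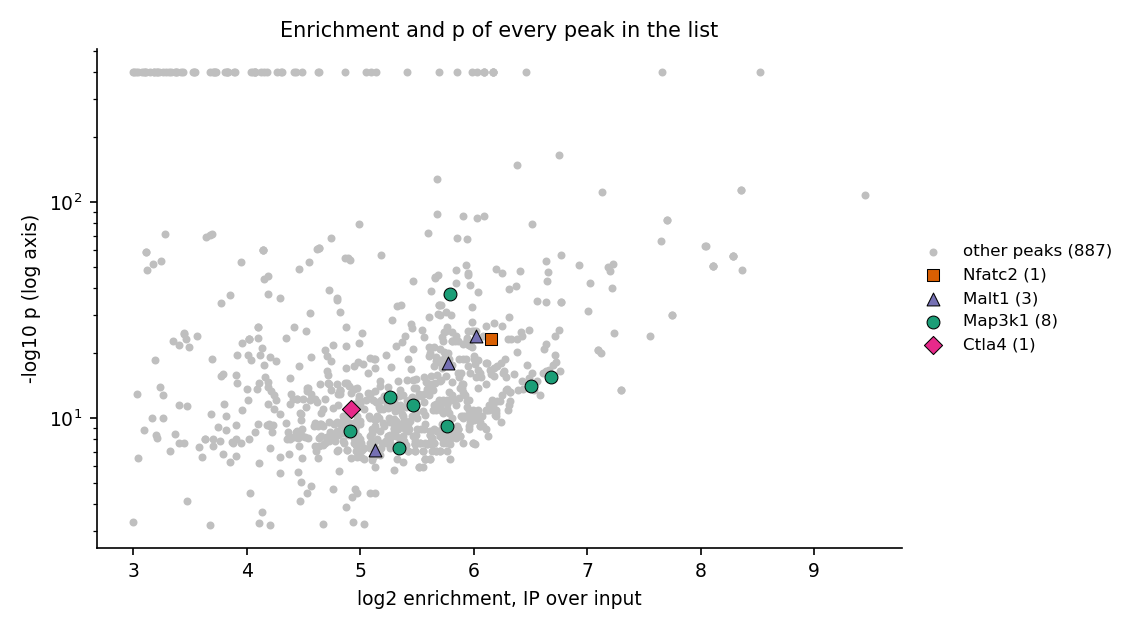
Log2 enrichment of IP over input (x axis) and −log10 p on a log axis (y axis) for each of the 900 peaks, with 1 point per peak. The 13 coloured peaks lie between 4.91 and 6.68 in enrichment and between 7.14 and 37.4 in −log10 p, and none is among the 72 peaks at the highest value of 400.

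Ctla4 (ENSMUSG00000026011.13), the receptor of the group, had a single intronic peak of 87 nt on the plus strand at chr1:60912247-60912333. Coordinates are on mm10 and counted from 1. The log2 enrichment was 4.92 with a −log10 p of 11.0, rank 594 of 900 by enrichment. It lay near the end of an intron of 3143 nt, 2967 nt after its 5′ splice site and 89 nt before its 3′ splice site. The authors classed it as an intron peak near a splice site. Of the 8 intronic peaks in the 4 genes it was the only one nearer to a 3′ than to a 5′ splice site. In the whole list 93 of 513 intron peaks of protein-coding genes lay that way. The annotation gives 3 transcripts over the peak, 2 of them protein-coding. A noncoding transcript has a longer intron there, of 11801 nt, that ends at the same 3′ splice site. The peak midpoint lay 3265 nt from the start of the longest protein-coding transcript, close to the middle of its 6808 nt, and 3119 to 25290 nt from a start over all 3 transcripts.

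Map3k1 (ENSMUSG00000021754.17), on the minus strand of chromosome 13, carried its 8 peaks in a stretch of 963 nt at the very start of a transcript of 62566 nt. The stretch covers the first exon and the beginning of an intron of 32484 nt. Since the peaks begin right behind the annotated start, the promoter window of the gene is shown. It is RefSeq's on GRCm38.p6, chr13:111808944-111809243 on the minus strand, written 5′ to 3′, with 250 bases before and 50 bases after the start of transcription at 111808993. Capitals mark the first 26 coding bases, of which the last 2 are also the first 2 bases of the first peak.

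Map3k1: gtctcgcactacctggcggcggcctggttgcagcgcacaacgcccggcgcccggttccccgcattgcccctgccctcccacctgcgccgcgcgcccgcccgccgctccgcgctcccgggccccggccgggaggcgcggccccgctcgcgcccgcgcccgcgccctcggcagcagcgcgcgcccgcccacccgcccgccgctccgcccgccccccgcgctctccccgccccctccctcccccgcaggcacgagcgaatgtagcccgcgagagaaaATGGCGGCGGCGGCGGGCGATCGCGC

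This window is among the richest in G and C of all. G and C made up 82.7% of its bases, beside a median of 52.7% over 32851 promoter windows of the same length, and 99.6% of windows had less. It held 55 CG pairs, beside a median of 7. The GC box letters GGGCGG, searched on both strands and with overlaps allowed, occurred 6 times, all on the strand opposite to the transcript, and 35.7% of all windows held at least 1. CCAAT and TATAAA did not occur, and 37.4% and 13.6% of all windows held them. These matches describe letters and are no evidence of a bound factor. The window of Ctla4 had 42.0% G and C with 8 CG pairs, and those at the pair of Nfatc2 starts had 62.0% with 23 and 68.0% with 20. No window of Malt1 was used here.

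The first 3 peaks of Map3k1 lay in the first exon, wholly within coding sequence. Peak 1 (chr13:111808869-111808945, 77 nt) began 24 nt after the start of the coding sequence and had a log2 enrichment of 5.26. Peak 2 (chr13:111808826-111808858, 33 nt) followed after a gap of 10 nt, at 5.77. Peak 3 (chr13:111808609-111808649, 41 nt) came 176 nt further on, at 5.34. These exon peaks were even in height, with a mean of 5.46 ± 0.27 (SD over 3 peaks), and had −log10 p values between 7.31 and 12.5.

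Past the exon, 5 peaks followed in the intron. Peak 4 (chr13:111808375-111808468, 94 nt) began 34 nt after the 5′ splice site. It had an enrichment of 5.79 and a −log10 p of 37.4, the largest of the 13 peaks and rank 155 of 900. The other 4 intron peaks formed a tight row with gaps of 14 to 20 nt, from chr13:111807983 to 111808227.

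In that row the heights varied most. Peak 5 (71 nt) had an enrichment of 6.51, peak 6 (43 nt) of 4.91, peak 7 (45 nt) of 6.68 and peak 8 (36 nt) of 5.47, so the lowest and the highest of the 13 peaks lay next to each other, 14 nt apart. The mean of the intron peaks was 5.87 ± 0.73 (SD over 5 peaks), and their range of 4.91 to 6.68 took in all exon peaks. The authors classed peak 8 as deep in the intron and the others as near a splice site. Its midpoint lay 502.5 nt from the 5′ splice site of the longest transcript and its near edge 484 nt, so it is a borderline case and not remote from the row.

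**Figure D2:**
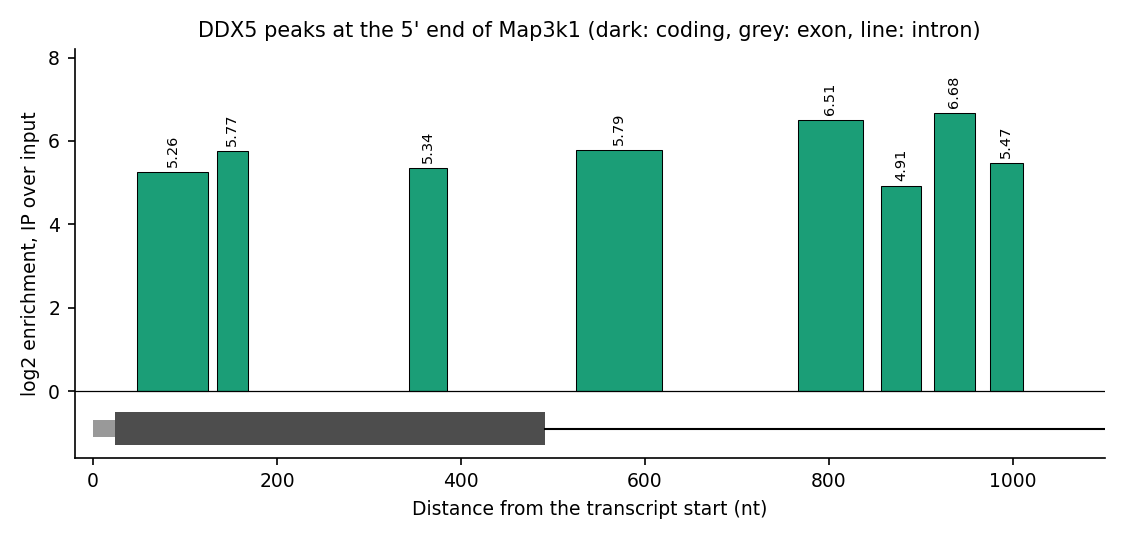
Log2 enrichment of IP over input (y axis) of the 8 Map3k1 peaks, drawn as bars as wide as the peaks, against distance from the transcript start in nt (x axis), with the first exon and the start of the intron below. Peaks 1 to 3 stand over the exon at 5.26 to 5.77, and the intron row holds both the lowest value, 4.91, and the highest, 6.68.

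Another Map3k1 transcript in the annotation starts 678 nt after the first and has a first exon of 69 nt. No peak overlapped that exon. Peaks 5 to 8 began 19, 110, 167 and 228 nt after its end, so they lie near a 5′ splice site in this transcript too. The authors assigned peaks 5, 6 and 7 to it and the others to the longer transcript. RefSeq's gene record extends 9276 nt further upstream than the start used here, and relative to such a start the same peaks would not be at the 5′ end. A long noncoding RNA gene, Gm15327, begins 144 nt upstream on the opposite strand and had no peak in the list.

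Together the peaks covered 45.7% of the 963 nt. When peaks up to 100 nt apart were joined, they formed 4 sites, of 120, 41, 94 and 245 nt. Other genes with many peaks were either about as compact or far more spread out. Among 25 protein-coding genes with at least 5 peaks, the stretch from first to last peak had a median of 12863 nt. It reached 69536 nt in Satb1, and Map3k1 ranked 7 from the shortest. The stretch at rank 11 was 1498 nt and that at rank 12 was 10429 nt. Of the 9 such genes with at least 8 peaks, Map3k1 had the shortest stretch, followed by Chd7 with 8 peaks in 1066 nt and Zeb1 with 8 in 1345 nt. Of the 25 genes, 5 had all their peaks within 1 kb of the transcript start, Map3k1 among them.

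Malt1 (ENSMUSG00000032688.7), on the plus strand of chromosome 18, had a pair of peaks at its first exon and another far downstream. Peak 1 (chr18:65431194-65431300, 107 nt) lay wholly in the coding part of the first exon, beginning 22 nt after the start of the coding sequence. Its log2 enrichment was 5.78 with a −log10 p of 18.0. Its position mirrors that of peak 1 in Map3k1, which began 24 nt after the start of the coding sequence.

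Malt1 peak 2 (chr18:65431336-65431480) was the widest of the 13, at 145 nt, and ran across the end of the first exon. It covered the last 63 nt of the exon and the first 82 nt of the intron. The authors' annotation calls it coding, although the larger part is intronic sequence that splicing removes. Its enrichment was 6.02 with a −log10 p of 24.0, the highest of the gene on both measures. Peaks that cross an exon and intron border of 1 transcript were uncommon, with 36 in the whole list (4% of 900).

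**Figure D3:**
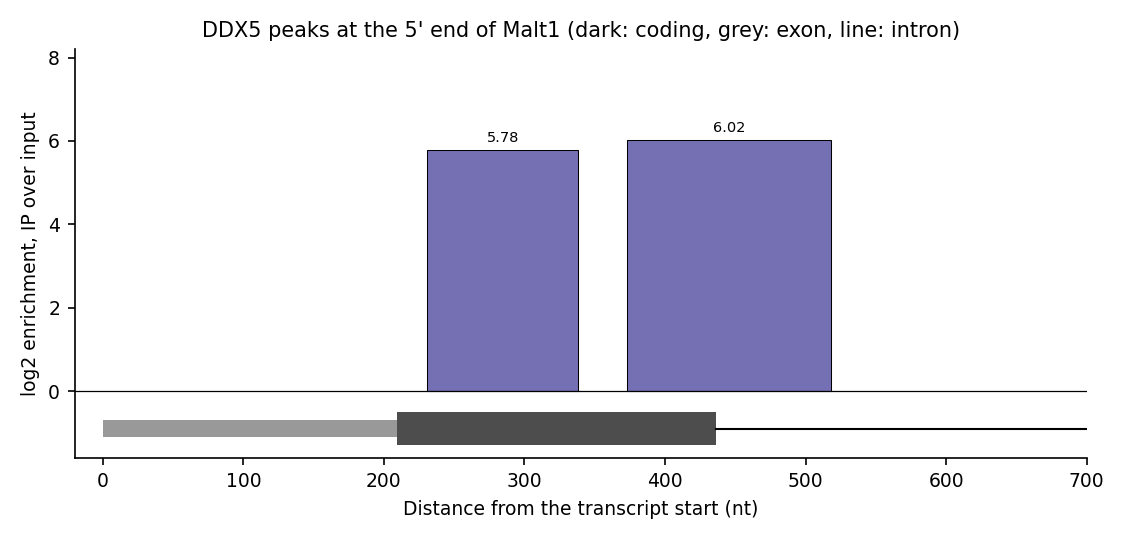
Log2 enrichment of IP over input (y axis) of the first 2 Malt1 peaks, drawn as bars as wide as the peaks, against distance from the transcript start in nt (x axis), with the first exon and the start of the intron below. The first bar (5.78) stands over coding sequence and the second (6.02) over the exon end, with 82 of its 145 nt in the intron.

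Malt1 peak 3 (chr18:65444997-65445088, 92 nt) lay 13516 nt further on, in a downstream intron of 2599 nt. It began 43 nt after the 5′ splice site of that intron, much like peak 4 of Map3k1, which began 34 nt after one. Its enrichment of 5.13 and its −log10 p of 7.14 were the lowest of the gene, and that −log10 p was the lowest of the 13 peaks. Over the 3 peaks the mean was 5.64 ± 0.46 (SD).

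Nfatc2 (ENSMUSG00000027544.16) had 1 peak of 98 nt on the minus strand, at chr2:168563205-168563302. Its log2 enrichment was 6.15 with a −log10 p of 23.4, rank 118 of 900 by enrichment and 224 by −log10 p. It was the most remote of the 13 from any start or splice site of the annotated transcripts over the peak. It lay in an intron of 30733 nt, 3836 nt after the 5′ splice site and 26799 nt before the 3′ splice site. The authors classed it as deep. All 7 annotated transcripts over the peak, 5 of them protein-coding, share this intron. Depending on the transcript, the midpoint lay 26938 to 38404 nt from the start, so the choice of transcript does not bring it near a 5′ end.

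Position along the transcript divided the 4 genes. Taking the longest protein-coding transcript, the midpoint was no more than 1 kb from the start for 8 of 8 peaks in Map3k1, 2 of 3 in Malt1 and 0 of 1 in both Nfatc2 and Ctla4. That is 10 of 13 (76.9%), beside 390 of 766 peaks (50.9%) over all peaks in protein-coding transcripts. Measured from the nearest start among all annotated transcripts over the peak, the count stayed at 10 of 13. The whole list rose to 534 of 766 (69.7%), so the share is then near that of the list. Without Map3k1, 2 of 5 peaks were near by the longest transcript. At a distance of 500 nt, 5 of the 13 peaks counted, beside 32.9% of all such peaks.

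**Figure D4:**
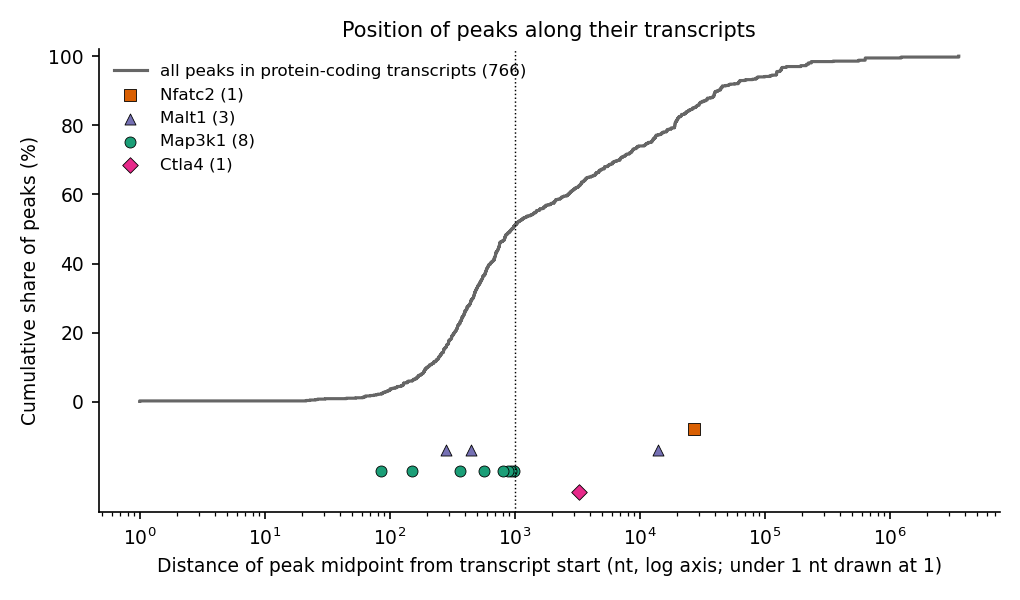
Cumulative share of the 766 peaks in protein-coding transcripts (y axis, %) by distance of the peak midpoint from the transcript start (x axis, nt, log axis), with the 13 peaks as symbols below, 1 row per gene, and a dotted line at 1000 nt. All Map3k1 symbols lie left of the line, whereas Nfatc2, Ctla4 and peak 3 of Malt1 lie right of it.

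By the authors' classes, 6 of the 13 peaks were in introns near a splice site, 2 deep in introns and 5 in coding exons, beside 26.9%, 30.1% and 10.3% of all peaks. None was in the 5′ UTR class, which held 16.6% of the list, although 10 lay within 1 kb of a start. Counting the Malt1 peak across the exon end, 9 of the 13 held intron sequence, beside 63.0% of all peaks. Within introns, 6 of 8 peaks began within 500 nt of a 5′ splice site of the transcript the authors assigned, beside 46.4% of 513. These 6 were the 5 intron peaks of Map3k1, from a single stretch, and peak 3 of Malt1. The intron peaks of Nfatc2 and Ctla4 were not among them. Peaks of 1 gene share a transcript and are not independent. Map3k1 gave 8 of the 13, so these class and position counts largely describe that gene.

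The 4 genes were then set among 138 genes of T cell receptor and costimulation signalling in 6 lists, which were drawn up with earlier results of these data known. Peaks were found in 13 of the 138. Leaving out the 4 chosen genes, 9 of 134 had a peak, beside 1.81% of the 21896 protein-coding genes of the RefSeq table. Only RNA that a cell makes can be crosslinked, and expression was not measured here, so the part of expression in this count was not tested. The highest peaks of the 9 genes had a median log2 enrichment of 5.57 and ran from 4.02 to 6.20. Over all 459 genes, noncoding ones included, the median was 5.36.

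The MAP kinase and AP-1 list, the longest, had 5 of 34 with the chosen Map3k1 counted in, beside 1.81% of all protein-coding genes. Beside Map3k1, Sos1, an exchange factor that activates Ras, had 2 peaks at 4.67 and 5.79. Rasa1, which turns Ras off, had 1 peak at 5.19. Map3k14 had 2 at 5.30 and 5.72. It encodes NIK, a kinase of the alternative NF-κB pathway, but was counted in this list and not in the NF-κB one. Jund, an AP-1 subunit, had 2 at 5.13 and 5.39. All peaks of these 4 other genes lay within 1 kb of the transcript start, but each gene had only 1 or 2. Of all peaks in protein-coding transcripts, 50.9% lay that near, or 69.7% by the nearest annotated start.

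The NF-κB branch had 3 of 25. Beside Malt1, Tab2, an adaptor of the TAK1 kinase, had 5 peaks between 3.91 and 5.42, all within 1 kb of the start, and Traf6, a ubiquitin ligase that acts with MALT1, had 1 at 4.02. The calcium and NFAT branch had 2 of 22, Nfatc2 and Dyrk1a, a kinase that counteracts NFAT, with 2 peaks at 5.17 and 6.20 near its start. Of the proximal receptor genes, 2 of 22 had a peak, namely Csk, which restrains the kinase LCK, at 6.11 in its 5′ UTR, and Grap2, an adaptor, at 5.57 in its 3′ UTR. Ctla4 was the only 1 of 20 costimulatory and inhibitory receptors, and it was chosen for its peak, so that count rests on the choice. The NF-κB and calcium counts also include a chosen gene each. The PI3K and diacylglycerol branch had 0 of 15, beside 1.81% of all protein-coding genes. A gene without a peak in this list is not shown to be unbound.

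**Figure D5:**
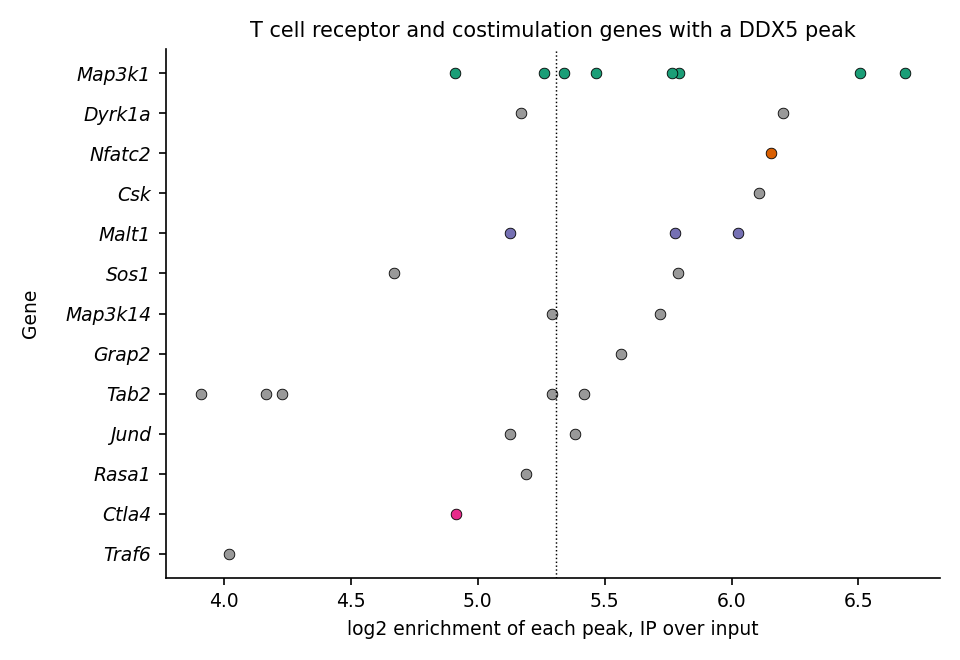
Log2 enrichment of IP over input (x axis) of each peak, 1 point per peak, in the 13 signalling genes with a peak, sorted by their highest peak; coloured points are the 4 chosen genes and the dotted line is the median of all 900 peaks, 5.31. Map3k1 has both the most points and the highest, 6.68, and Ctla4 lies at 4.92, above Traf6 alone by highest peak.

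Peaks do not measure expression, so the labelled cell type could not be checked against its markers. Of 12 T helper and Th17 marker genes, 2 had a peak, Rora (highest 6.49) and Ahr (4.93), and 0 of 7 B cell and 0 of 8 myeloid markers had one. At 1.81% of all protein-coding genes, lists this short would mostly hold 0, so these counts do not check the cell type.

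The genes most like each of the 4 in this list were found by commonest region class, number of peaks and highest enrichment. For Nfatc2 they were Zdhhc18 (6.16) and the overlapping pair Afg3l1 and Gm20388, which are 2 names for the same 2 peaks (6.12). They came out of 79 genes with at most 2 peaks and deep intron as their commonest class. For Malt1 they were Kmt5a (6.05), Insl3 (6.06) and Pan3 (5.94), out of 15 with coding exon as the commonest class. For Ctla4 they were Kdm5b (4.89), Klf13 (4.95) and Strn3 (4.95), out of 123 with intron near a splice site as the commonest class. For Map3k1, 0 other genes met the class and the peak number within 2. This turns on the class, since Chd7 and Zeb1 also had 8 peaks each but deep intron as their commonest class. Chd7 reached 6.70 with 8 peaks within 1 kb of the start, and Zeb1 reached 6.71 with 6.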

How the data were processed

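Per the submitters' processing notes, the tools were cutadapt 1.9.1, STAR 2.4.0i and SAMtools 1.4.1, with the genome build mm10. Per the deposited settings, the authors set each IP library against its own input, joined both replicates by irreproducible discovery rate, kept peaks from 3 upward on both the log2 fold and the −log10 p scale, and used a 10-nt random barcode. Peak caller and annotation release were not given in the sources used here. Per the file headers, each peak has a deposited log2 fold and a deposited −log10 p, with 400 the highest −log10 p.

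From these, with Python 3.11.15 and pandas 2.3.3, peaks were selected by gene name, and starts were shifted to count from 1. Distances ran from the peak midpoint to the start of a transcript, the longest of the protein-coding ones over the peak in the authors' own annotation field, and "near" means 1000 nt. Peaks that overlapped or touched counted as 1 site. Joining and distance steps were tested on simulated peaks. Promoter windows and gene names came from RefSeq GRCm38.p6, and all 138 list genes matched. Some list genes are not reported here and were left out of every list count. Named genes were the 4 members, every list gene with a peak, and the 3 genes most alike per member (same commonest region class, peak number within 1, or within 2 from 6 peaks on, then closest highest enrichment). Satb1, Chd7 and Zeb1 fall outside this rule and were named after their values were seen. Members and lists were chosen with earlier results of these data known. No test was run. Alternatives were minima of 4 for the log2 fold and of 10 for the −log10 p, other joining and distance rules, and leaving out Map3k1.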

Additional observations from a re-analysis of the deposited data

How the results depend on the processing

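Of 17 alternative values, 12 were counted as unchanged and 5 as moved. Unchanged is loose here, since at a −log10 p of at least 10 a fall from 13 to 9 peaks was counted so. The peaks within 1 kb of a start fell from 10 to 7 there, also counted as unchanged. A minimum log2 fold of 4 could change no value of the 13 peaks, because the lowest of them was 4.91. All 13 peaks kept a log2 fold of at least 4, as did 797 of the 900. Of the 13, 9 had a −log10 p of at least 10, with all 4 genes still represented, beside 577 of the 900. The median log2 enrichment was 5.77 to 5.79 under every alternative run. The 13 sites became 8 when peaks up to 100 nt apart were joined, of which Map3k1 went from 8 to 4 and Malt1 lost 1 more, and 5 of the 13 were left without Map3k1. The 10 peaks within 1 kb of a start became 5 at 500 nt and 2 without Map3k1. Signalling genes with a peak fell from 13 to 8 at a −log10 p of at least 10, which took away Grap2, Traf6, Rasa1, Map3k14 and Jund. Leaving out Map3k1 was chosen after the data were seen. No paired analysis was possible because the deposited list holds no value per replicate, and leaving out 1 replicate was not run for the same reason. Without read counts, the precision of a single enrichment is unknown.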

Other observations

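The peak values come in steps. The 900 peaks hold 415 distinct −log10 p values and 675 distinct log2 enrichments, and 9 of the 13 peaks in Nfatc2, Malt1, Map3k1 and Ctla4 share their −log10 p exactly with another peak, 5 their enrichment. Malt1 peak 3 and the first Jund peak, for example, both stand at 5.13.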
